A study of Mus musculus with 6 samples.

Results

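The Id and E protein genes were followed in RNA-seq libraries of regulatory T (Treg) cells with and without miR-142. The 6 genes, Id1, Id2, Id3, Tcf3, Tcf4 and Tcf12, were taken by symbol from the 24421 genes of the deposited count matrix, and all 6 were found there. Tcf7l1 and Tcf7l2, which have carried Tcf3 and Tcf4 as aliases, are separate genes of the matrix and were not counted among them. The libraries came from splenic CD4+YFP+ cells of female C57BL/6 mice aged 8 to 11 weeks. They were made from 3 Foxp3Cre mice (WT) and 3 Foxp3Cre miR-142fl/fl mice (KO), 1 from each. Mice of both groups express Cre fused to YFP from the Foxp3 promoter, so YFP marks the cells that make Cre. The KO mice also carry floxed miR-142 alleles, which are deleted only where Foxp3 has been active. Other cells of these mice keep the miRNA. The paper reports that the KO mice develop a fatal systemic autoimmune disease with activated T cells. It names the caveat that this inflammation could itself change gene expression in Treg cells. With this design, such changes and those from the loss of miR-142 within the cells cannot be told apart. The libraries held 15493795, 24042994 and 17779518 counts for the WT mice and 18601425, 13883069 and 14822989 counts for the KO mice, in the order of replicate number, which is kept below.

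E proteins are basic helix-loop-helix (HLH) transcription factors that bind E-box motifs in DNA as dimers. Id proteins carry the HLH domain through which the dimers form but lack the basic region that contacts DNA, so an E protein paired with an Id protein no longer binds its sites. In T cells the E proteins act in thymocyte development and later restrain effector fates. Id2 is known for its use in effector cells and Id3 for its use in naive and memory-like cells, and in Treg cells Id2 and Id3 together are known to limit the follicular regulatory fate.

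The deleted gene gives rise to a pair of mature miRNAs, and the 3′ UTRs of the 6 genes were searched for 7-base matches to their seeds. The mature sequences, from RefSeq (GRCm38.p6, chromosome 11, + strand), are shown with the seed (bases 2 to 8) in capitals. Of the motifs below, ACACTAC and ACTTTAT are the reverse complements of the capitals.
miR-142a-3p: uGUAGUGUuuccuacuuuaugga
miR-142a-5p: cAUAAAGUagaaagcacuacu
The motifs searched, on the transcript strand alone, were ACACTAC and AACACTA for miR-142-3p, which occurs in forms offset by 1 base, and ACTTTAT for miR-142-5p. Among 10786 tested genes with an annotated 3′ UTR, the longest 3′ UTR held ACACTAC in 7.08%, AACACTA in 10.3%, ACTTTAT in 15.9% and any of them in 26.0%. Id1 had 1 match to miR-142-3p and Tcf12 had 1 match to miR-142-5p, while the longest 3′ UTRs of Id2, Id3 and Tcf3 held none of the 3 motifs. Id2 had 1 match of a further kind, CTTTATA, which pairs with bases 2 to 7 of miR-142-5p and holds an A opposite base 1, and which 15.3% of the tested genes had. Each match is given with its motif in capitals.
Id1 3p match: ctctgggaaagACACTACcgcagccaccg
Id2 5p match: tggaaggttttCTTTATAtactattccca
Tcf12 5p match: aaaagtttcttACTTTATtttattatatt
They lie at chr2:152737094-152737122 on the + strand, chr12:25094309-25094337 on the - strand and chr9:71844619-71844647 on the - strand of GRCm38, and the motif itself was in 2 of 2, 2 of 3 and 3 of 6 annotated 3′ UTRs of the respective gene. A match describes these letters and not the use of a site.

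The labels were first checked with the deleted gene. Mir142b, the annotation antisense to Mir142, had 147, 101 and 105 counts in the WT libraries and 7, 5 and 5 counts in the KO libraries, while Mir142 had 0 counts in all 6. Every KO library thus lay far below every WT library in Mir142b. The Treg cell label was checked with 9 marker genes, all of them above 1 CPM (counts divided by the library size in megacounts, after scaling with the TMM method) in every library. Their summed CPM was 5854, 6452 and 6402 in WT and 7604, 8436 and 8615 in KO replicates 1, 2 and 3. Most of the higher sum in KO came with Il2ra, the IL-2 receptor alpha chain, which had 799, 744 and 726 CPM in WT and 2258, 2404 and 3073 CPM in KO. Ikzf2 was the most abundant of the 9 in WT, with 1237, 1614 and 1297 CPM, and Cd4 and Cd3e were lower in every KO library than in any WT library. Foxp3 (536, 595 and 566 CPM in WT, 641, 749 and 677 CPM in KO) and Tnfrsf18 were higher in every KO library than in any WT library. These 5 genes were named after their values were seen.

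Transcripts of other splenic cells were most abundant in KO replicate 1, although the sort took CD4+YFP+ cells, and some were also raised in KO replicates 2 and 3. Of 11 B cell markers 10 were matched, and their summed CPM was 91.5, 77.1 and 81.6 in WT against 2397, 203 and 286 in KO replicates 1, 2 and 3. The most abundant of them was Cd74, which other antigen-presenting cells also express, with 50.4, 44.7 and 51.5 CPM in WT and 2097, 194 and 273 CPM in KO. Cd74 made the higher sums of KO replicates 2 and 3, since Cd22 (0.984 and 1.09 CPM there, 15.5 to 19.8 in WT) and Cd79b (6.13 and 9.65 CPM, 11.8 to 18.3 in WT) were lower than in WT. Both genes were named after their values were seen. The 12 of 13 neutrophil markers matched summed to 1.54, 0.738 and 0.277 CPM in WT and to 955, 8.40 and 48.7 CPM in KO. The most abundant was S100a9 in KO replicate 1 and Mpo in KO replicates 2 and 3. Cxcr2 had 0 counts outside KO replicate 1. Of the 12 markers, 10 were highest in KO replicate 1. Mpo (303, 82 and 470 counts in KO) and Prtn3 (74, 7 and 105), named after their values were seen, were highest in KO replicate 3. The 12 monocyte and macrophage markers summed to 2876, 79.1 and 19.4 CPM in KO and to between 7.70 and 11.6 CPM in WT. Csf1r was the most abundant in KO replicate 1, Vcam1 in KO replicates 2 and 3 and Cd68 in WT. All 10 B cell markers and all 12 monocyte and macrophage markers were highest in KO replicate 1.

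The sums of the dendritic cell markers were also highest in KO replicate 1. The 8 conventional dendritic cell markers summed to 152 CPM in KO replicate 1, led by Itgax, and to between 2.99 and 6.78 elsewhere, led by Zbtb46. Cd209a had no count outside KO replicate 1. The 8 plasmacytoid dendritic cell markers summed to 411 CPM there and to between 217 and 257 elsewhere, and Klk1 had no count outside KO replicate 1. Of these 8 genes 7 were highest in KO replicate 1. Pacsin1, the most abundant of them in the other libraries, was lowest there, at 83.5 CPM against 111 to 165 elsewhere. The 9 CD8 and NK cell markers summed to 45.6, 37.6 and 41.1 CPM in WT and 271, 116 and 112 CPM in KO. Nkg7 led in every KO library, and Klra8 was at 0 in all libraries. The 8 erythroid markers summed to 1.39 CPM or less in WT and to 18.9, 14.9 and 6.02 in KO. Car1 led in KO replicates 2 and 3 and Alas2 in the other libraries, with Hba-a1, Hba-a2, Hbb-bs and Hbb-bt listed at 0 throughout. The 10 endothelial and stromal markers, led by Pecam1 and with Emcn at 0, summed to between 223 and 305 CPM in all 6 libraries. The calls of Id2, Id3 and Tcf4 and the counts and medians of the gene lists are given below with and without KO replicate 1.

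**Figure D1:**
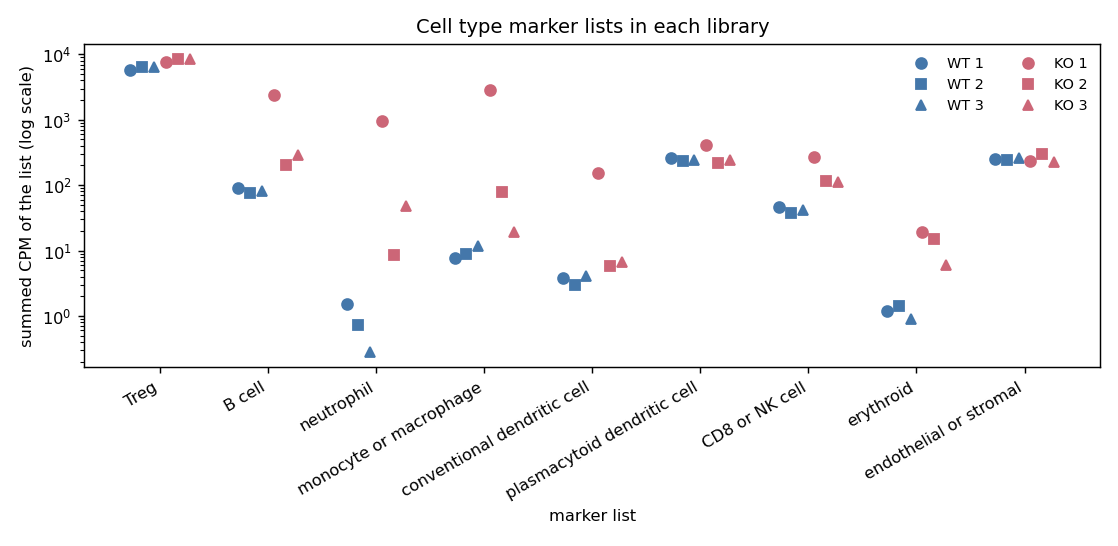
Summed CPM (log axis) of each marker list in the 6 libraries, WT in blue and KO in red, with a symbol for each replicate number. The B cell, neutrophil, monocyte or macrophage and conventional dendritic cell lists stand highest in KO replicate 1, at 2397, 955, 2876 and 152 CPM, while the Treg list lies between 5854 and 8615 CPM in all libraries.

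Among the Id genes, Id2 rose and Id3 fell in KO Treg cells, and of the E protein genes only Tcf4 passed the test, with a rise. All 6 genes passed the filter of more than 1 CPM in at least 3 libraries and entered the quasi-likelihood F (QLF) test of edgeR, run across 11658 genes at a false discovery rate (FDR) under 0.05. Of the 6 members, 2 were called higher and 1 lower, 3 in all. Over all tested genes 18.8% were called, 11.6% higher and 7.27% lower. This split of 1350 higher and 847 lower depended on the scaling, and was 1064 higher and 1201 lower with library size alone. WT and KO libraries did not overlap in CPM for Id2, Id3 and Tcf4, that is in 3 of 6 members, and 41.0% of all tested genes also had groups that did not overlap. With so few members these shares describe the family and set it apart from nothing. With 3 mice against 3, an exact two-sided permutation test of a single gene cannot give a p below 0.1. In bulk libraries such as these, fewer cells of a type and less RNA per cell cannot be told apart.

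**Figure D2:**
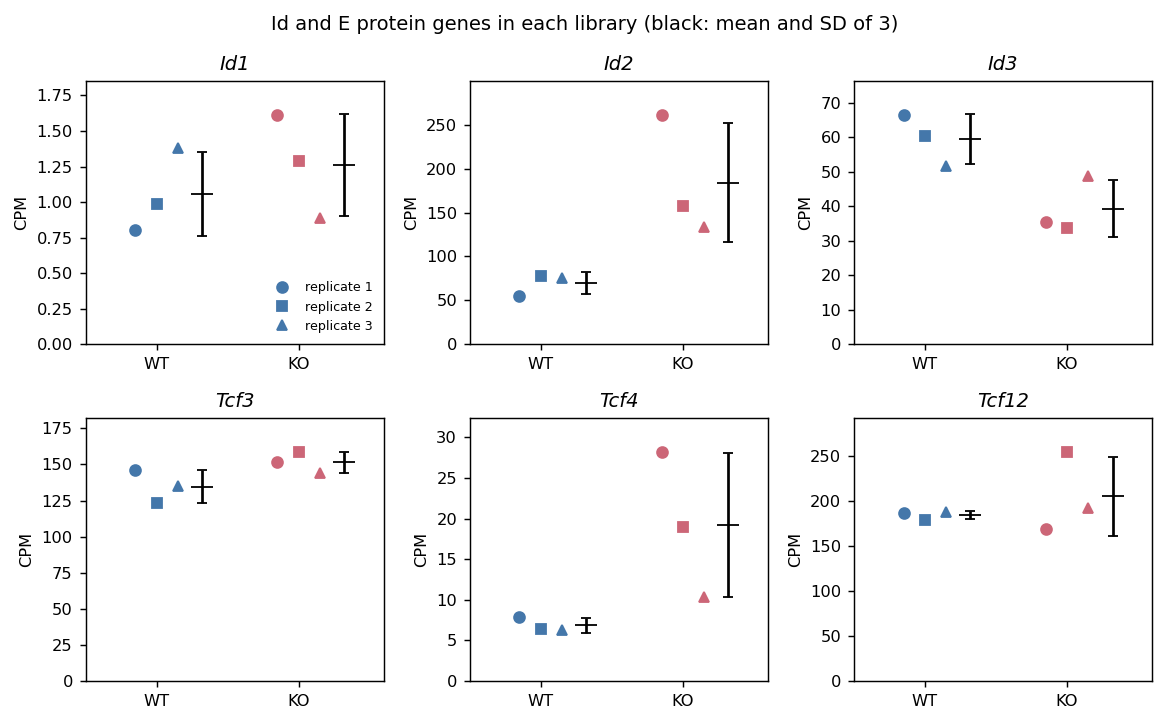
CPM of the 6 genes in each library (y axis from 0), WT in blue and KO in red, with a symbol for each replicate number and the mean and SD of 3 libraries in black. Id2 and Tcf4 lie higher in every KO library than in any WT library, Id3 lies lower, and the groups overlap for Id1, Tcf3 and Tcf12.

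Id2, an inhibitor of E proteins that effector lymphocytes use, lies on chromosome 12 of GRCm38 (25093799 to 25097140, - strand). It had 897, 1905 and 1369 counts in WT and 4698, 2083 and 1960 counts in KO. On the CPM scale this was 55.2, 78.1 and 75.7 in WT and 261, 158 and 134 in KO. Every KO library stood above every WT library, KO replicate 1 was the highest, and the KO libraries were spread more widely than the WT libraries. Mean CPM was 69.7 ± 12.6 for WT against 184 ± 67.4 for KO (± SD, 3 mice each). This gave a log2 fold change of 1.40 (2.64-fold, SE 0.26, QLF test, FDR = 0.0128), and the exact permutation p was 0.1. Without KO replicate 1 the log2 fold change was 1.05 (SE 0.16, QLF test, FDR = 0.00400), in a fit that called 17.3% of 11429 genes. The call of Id2 was lost without WT replicate 1 (log2 fold change 1.23, QLF test, FDR = 0.0552) and without WT replicate 2 (1.49, FDR = 0.0504).

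Id3, the inhibitor associated with naive and memory-like T cells, moved the opposite way. It lies on chromosome 4 (136143497 to 136145755, + strand) and had 1078, 1473 and 937 counts in the WT libraries and 638, 446 and 712 counts in the KO libraries. Its CPM was 66.4, 60.4 and 51.8 in WT and 35.4, 33.8 and 48.7 in KO. KO replicates 1 and 2 were low, and KO replicate 3 lay only just under the lowest WT library. Mean CPM was 59.5 ± 7.32 for WT against 39.3 ± 8.20 for KO (± SD, 3 mice each). Its log2 fold change was -0.60 (SE 0.17, QLF test, FDR = 0.0448), with an exact permutation p of 0.1. This call was near the threshold: without any 1 of 5 libraries it was lost, at an FDR of 0.123, 0.140 and 0.0735 without WT replicates 1, 2 and 3 and of 0.0710 and 0.0871 without KO replicates 1 and 2. Without KO replicate 3 it was kept (log2 fold change -0.80, QLF test, FDR = 0.0204). With all 6 libraries the call of Id3 was also lost without a filter (QLF test, FDR = 0.0580) and with a block for replicate number (FDR = 0.0771).

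Id1, an inhibitor that other tissues express more strongly, was near the limit of detection. It lies on chromosome 2 (152736251 to 152737410, + strand) and had 13, 24 and 25 counts in WT and 29, 17 and 13 counts in KO. Its CPM was 0.801, 0.984 and 1.38 in WT and 1.61, 1.29 and 0.890 in KO, and the groups overlapped. Mean CPM was 1.06 ± 0.298 for WT against 1.26 ± 0.361 for KO (± SD, 3 mice each). The log2 fold change was 0.26 (95% CI -0.56 to 1.09, QLF test, FDR = 0.637), an interval wide enough to hold a rise or a fall. Id4, the remaining Id gene, had 1 count in WT replicate 2 and 0 in the other 5 libraries.

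Tcf4, the E protein gene used most by B cells and plasmacytoid dendritic cells, was the lowest of the 3 E protein genes in counts and the only one called. It had 128, 155 and 113 counts in the WT libraries and 508, 251 and 152 counts in the KO libraries. Its CPM was 7.88, 6.35 and 6.25 in WT and 28.2, 19.0 and 10.4 in KO. Every KO library was above every WT library, KO replicate 1 was the highest and KO replicate 3 was close to WT. Tcf4 averaged 6.83 ± 0.914 CPM for WT against 19.2 ± 8.90 for KO (± SD, 3 mice each). Its log2 fold change was 1.49 (SE 0.34, QLF test, FDR = 0.0253), with an exact permutation p of 0.1. The log2 fold change without KO replicate 1 was 1.09 (SE 0.27, QLF test, FDR = 0.0282). The call was lost without WT replicates 1, 2 and 3 in turn, at an FDR of 0.0699, 0.105 and 0.0952.

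The gene of Tcf4 spans chromosome 18 from 69343356 to 69689079 (+ strand). Its longest annotated 3′ UTR, of 6007 bases, held 1 match to AACACTA and 1 to ACTTTAT, both in exon 20 and both in 2 of its 24 annotated 3′ UTRs. The first of these was overlapped by a match of the kind with an A opposite base 1. For this form of miR-142-3p, 10.1% of the tested genes had that kind. The overlapping matches start at bases 3463 and 3464 of this 3′ UTR and so form a longer match. The share of tested genes with such a longer match was not counted. The longest 3′ UTR of Tcf12 has 3884 bases, and those of the other 4 members have 536 to 785.

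Because Id2 and Tcf4 were highest in the library with the most transcripts of other cells, they were set beside the defining markers of those cells. In KO replicate 1, with 4698 counts of Id2 and 508 of Tcf4, Ms4a1 had 652 counts, Csf1r 11523, Itgax 2275 and Siglech 168. In KO replicates 2 and 3, Ms4a1 had 0 and 2 counts, Itgax 3 and 0, and Siglech 1 and 0, which is near the counts of the WT libraries. In these same libraries Id2 had 158 and 134 CPM and Tcf4 19.0 and 10.4 CPM, above every WT library. Csf1r was at 167 and 13 counts in KO replicates 2 and 3, against 8, 12 and 15 in WT. Marker lists were mixed in these libraries. Of the 8 plasmacytoid dendritic cell markers, 3 lay above every WT library in both KO replicates 2 and 3, 1 (Pacsin1) lay below and 4 did neither. Of the 8 conventional dendritic cell markers, 1 lay above, 1 below and 6 neither. Of the 12 monocyte and macrophage markers, 9 lay above, some by a few counts, and 1 below, and of the 12 neutrophil markers 5 above and 0 below. Of the 9 CD8 and NK cell markers, 4 lay above and 1 below, with Nkg7 at 55.7 and 60.3 CPM against 15.8 or less in WT. The part that other cells had in the Id2 and Tcf4 values of the KO libraries was not tested. Tcf7l2, the gene that shares an alias with Tcf4, had 9, 22 and 22 counts in WT and 394, 33 and 24 counts in KO, and stood out more in KO replicate 1 than Tcf4 did.

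Tcf3, the E protein gene with the widest use in lymphocytes, differed little between the groups. It lies on chromosome 10 (80409514 to 80433647, - strand) and had 2369, 3000 and 2436 counts in WT and 2734, 2095 and 2108 counts in KO. Its CPM was 146, 123 and 135 in WT and 152, 159 and 144 in KO, with KO replicate 3 under WT replicate 1, so the groups overlapped. Tcf3 averaged 134 ± 11.5 CPM for WT against 152 ± 7.18 for KO (± SD, 3 mice each). The log2 fold change was 0.17 (95% CI -0.04 to 0.39, QLF test, FDR = 0.229), and the exact permutation p was 0.2.

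Tcf12, which encodes the E protein HEB, lies on chromosome 9 (71842688 to 72111871, - strand). It had 3035, 4372 and 3401 counts in WT and 3054, 3367 and 2807 counts in KO. Its CPM was 187, 179 and 188 in WT and 169, 255 and 192 in KO, with the lowest and the highest value both in the KO group. Tcf12 averaged 185 ± 4.84 CPM for WT against 205.5 ± 44.25 for KO (± SD, 3 mice each). The log2 fold change was 0.15 (95% CI -0.20 to 0.50, QLF test, FDR = 0.508), and it turned to -0.03 (QLF test, FDR = 0.851) without KO replicate 2. Annotated genes that lie within Tcf4 and Tcf12 share no exon base with them and were not in the matrix.

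**Figure D3:**
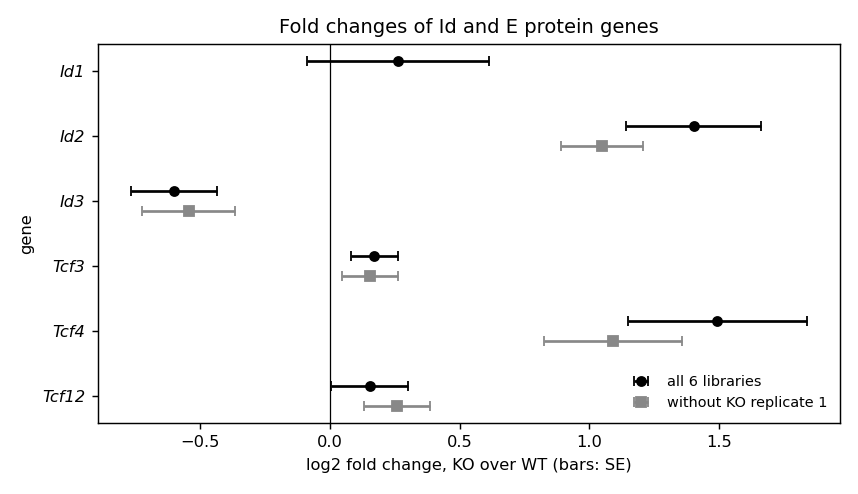
Log2 fold change (KO over WT, x axis) of the 6 genes with its SE, from all 6 libraries (black circles) and without KO replicate 1 (grey squares). Id2 moves from 1.40 to 1.05 and Tcf4 from 1.49 to 1.09 without that library, Id3 stays negative, and Id1 has no second value because it then fell below the CPM filter.

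Levels of the 6 genes were compared per length, as RPKM (CPM per kilobase of the union of a gene's exons). In WT Treg cells Tcf3 (33.3 ± 2.84 RPKM), Id3 (33.2 ± 4.09 RPKM) and Id2 (28.6 ± 5.15 RPKM) stood at the top and did not differ beyond their spread (SD, n = 3). Tcf12 followed with 11.9 ± 0.312 RPKM, then Id1 with 0.910 ± 0.257 and Tcf4 with 0.249 ± 0.0334 RPKM. In KO Treg cells Id2 was first with 75.6 ± 27.6 RPKM, ahead of Tcf3 (37.5 ± 1.78), Id3 (21.9 ± 4.58) and Tcf12 (13.2 ± 2.85), and Id1 and Tcf4 again came last with 1.09 ± 0.311 and 0.701 ± 0.325 RPKM. The union of exons is long for Tcf4 (27382 bases) and Tcf12 (15529 bases), which have many annotated isoforms. The lengths, from GENCODE vM21, may differ from those of the annotation used for counting, and levels and shares per length depend on them. With the median length of a gene's coding transcripts, an alternative chosen after seeing the data, Tcf12 was first in WT with 81.9 RPKM, ahead of Id2 (54.9), Tcf3 (47.6) and Id3 (46.6), and Tcf4 (3.77) stood above Id1 (1.13). The order of the E protein genes thus depended on the length used, while Id1 and Tcf4 were the lowest with both lengths.

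The balance between Id2 and Id3 was read within each library, where the scaling of libraries plays no part. Per exon-union length, the ratio of Id2 to Id3 was 0.611, 0.9501 and 1.07 in WT and 5.41, 3.43 and 2.02 in KO. The lowest KO library thus stood above the highest WT library, and on geometric means the ratio was 3.92 times as high in KO. This factor is the same for any length used, although the WT mean of the ratio moved from 0.878 to 1.195 with raw counts. Id2 made up 45.5 ± 7.01% of the summed Id transcripts in WT and 75.4 ± 8.64% in KO, and Id3 53.1 ± 7.35% and 23.5 ± 8.74% (SD, n = 3 per group). Id1 was 1.95% or less of the sum in every library. These ratios describe genes chosen with earlier results known and were given no test.

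**Figure D4:**
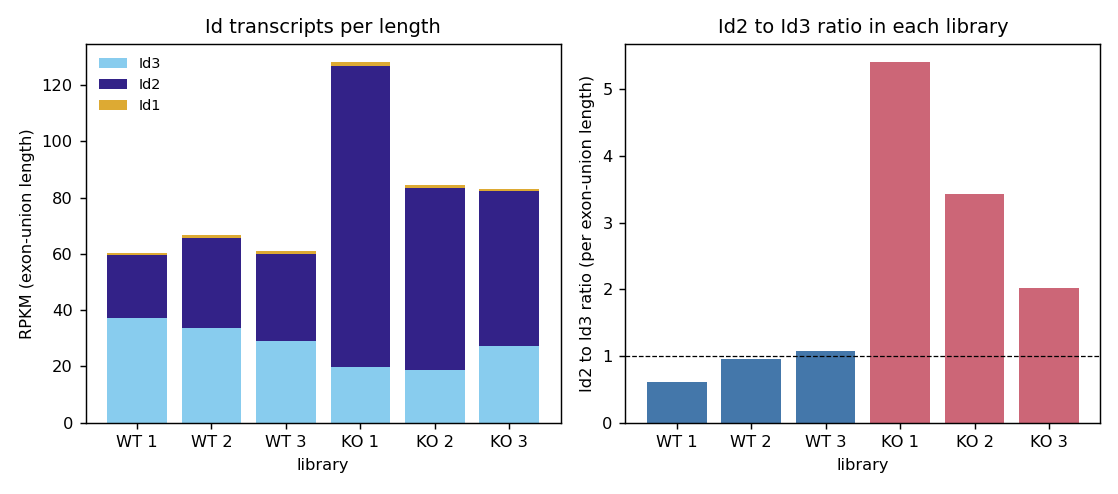
Left, RPKM of Id3, Id2 and Id1 stacked in each library. Right, the ratio of Id2 to Id3 per exon-union length in each library, with a dashed line at 1, where the WT libraries lie between 0.611 and 1.07 and the KO libraries between 2.02 and 5.41.

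The summed Id transcripts were also set against the summed E protein transcripts. Per exon-union length this ratio was 1.25, 1.58 and 1.34 in WT and 2.59, 1.501 and 1.71 in KO. The groups overlapped, since KO replicate 2 lay below WT replicate 2, and only KO replicate 1 stood clearly apart. The size of the ratio depended on the length used, with WT means of 1.39 per exon-union length, 0.773 per median coding transcript and 0.401 on raw counts, and it does not measure protein. Tcf3 made up 73.2 ± 1.24% of the E protein sum in WT and 73.1 ± 3.16% in KO per exon-union length, but 35.7% and 34.8% with the median coding transcript. The share of Tcf4 was 0.548 ± 0.0474% in WT and 1.365 ± 0.658% in KO per exon-union length, 2.83% and 6.90% with the median coding transcript, and was below that of Tcf3 and Tcf12 in every library.

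Members were compared with each other and with other genes by Pearson's r of log2(CPM + 0.5) over the 6 libraries, which form 2 groups of 3, as a description. Id2 had a negative r with Id3 (r = -0.91, n = 6) and a positive r with Tcf4 (r = 0.92, n = 6), while within WT the libraries ranked otherwise for Id2 than for Tcf4. The genes most like Id2 were Wdr7, Bank1 and Tbc1d19 (r of 0.996 or above). Bank1, a scaffold protein of B cell receptor signaling, had 1.97, 3.77 and 4.32 CPM in WT and 43.7, 14.8 and 12.3 CPM in KO, and so was above WT also in the KO libraries with almost no Ms4a1. The genes most like Id3 were Mettl3, an RNA methyltransferase subunit, Vps72 and Sirt4, and those most like Tcf4 were Cnpy3, Wdr34 and Ctnnbip1, an inhibitor of beta-catenin (r of 0.993 or above). Those most like Tcf3 were Nek8, Nsmce2 and Tatdn3, those most like Tcf12 were Mrps22, Tmc6 and Zkscan1, and those most like Id1 were Mastl, Cd2ap and Sgol1 (r of 0.960 or above). A high r was common, since 188 tested genes had an r above 0.95 with Id2, 158 with Id3 and 124 with Tcf4.

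Other HLH factors and the cofactors of E proteins were taken from a list of 29 genes, of which 14 were tested, 3 called higher and 0 lower, beside 18.8% called over all tested genes. Their median log2 fold change was 0.22, beside 0.02 over all genes tested. When KO replicate 1 was left out, 13 were tested, with 3 again called higher and 0 lower. Those 13 had a median of 0.15 in that fit and 0.08 with all 6 libraries. Kat2b, an acetyltransferase that works with E proteins, rose from 129 ± 8.86 to 208 ± 27.96 CPM (log2 fold change 0.69, SE 0.12, QLF test, FDR = 0.00926). Lmo2, an adaptor that joins E protein dimers to other factors, had 14, 25 and 10 counts in WT and 382, 48 and 89 in KO. Only 1 WT library exceeded 1 CPM (WT values of 0.862, 1.025 and 0.553 CPM), so its place in the test depended on the KO libraries. It is among the 3 genes called higher, and its fold change is not given because the WT libraries lie near the filter. KO replicate 1 was its highest library, at 21.2 CPM against 3.63 and 6.09 CPM in KO replicates 2 and 3. The related adaptor Lmo4 rose from 15.6 ± 1.005 to 25.7 ± 4.62 CPM (log2 fold change 0.72, QLF test, FDR = 0.0205). The calls of Lmo2 and Lmo4 were lost without each of the WT libraries in turn, at an FDR of 0.0608 to 0.0827. No gene was called lower by the QLF, likelihood ratio or exact test, DESeq2 or limma-voom, and 1 gene had an unadjusted QLF p under 0.05 in that direction. The coactivators Ep300 (393 and 364 CPM in WT and KO) and Crebbp (324 and 265 CPM), named after their values were seen, were abundant and not called.

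Genes described as targets of E proteins in lymphocytes moved both ways. Of 26 listed genes 16 were tested, with 4 called higher and 1 called lower, beside 11.6% higher and 7.27% lower over all tested genes. With scaling by library size alone 3 were higher and 3 lower. Their median log2 fold change was 0.19. Without KO replicate 1 only 15 were tested, because Hes1 then failed the filter. The median of these was -0.20, and the calls were 3 higher and 1 lower. With all 6 libraries these 15 genes had a median of -0.11, so the positive sign over 16 genes rested on Hes1. The likelihood ratio test, the exact test and limma-voom each called 4 genes higher and 2 lower, and DESeq2 called 6 higher and 4 lower. Cdk6, a cell cycle kinase, rose from 34.3 ± 1.62 to 99.7 ± 9.95 CPM, a log2 fold change of 1.54 (SE 0.10, QLF test, FDR = 0.000527). The cytokine signaling inhibitors Socs3 (log2 fold change 1.07, SE 0.09, FDR = 0.000880) and Socs1 (0.55, SE 0.16, FDR = 0.0486) were also called higher in the QLF test. With 1 library left out at a time, the call of Socs1 held only without KO replicate 2, and the FDR was between 0.0577 and 0.174 in the other 5 fits. It was also lost with scaling by library size alone (log2 fold change 0.48, QLF test, FDR = 0.0878). Hes1, a repressor downstream of Notch, had 1, 2 and 14 counts in WT and 131, 105 and 98 in KO, and it passed the filter through the KO libraries alone. It is among the 4 genes called higher, and its fold change is not given because the WT counts are too low to size it. Cxcr5, the chemokine receptor of follicular T cells, fell from 87.4 ± 13.9 to 22.6 ± 5.16 CPM, a log2 fold change of -1.95 (SE 0.19, QLF test, FDR = 0.00135). The B cell targets Ebf1 and Pax5 did not pass the filter and had 248 and 193 counts in KO replicate 1 and at most 4 in any other library. Both genes also belong to the B cell list.

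Receptors and signal transducers known to act upstream of Id genes were listed next, because BMP and TGF-beta signals act on Id genes through SMAD proteins. Of 26 genes 20 were tested, with 4 called higher and 2 lower, beside 11.6% and 7.27% over all tested genes, and their median log2 fold change was 0.11. Without KO replicate 1 the median was -0.07, with 5 genes called higher and 2 lower, over the same 20 genes. The type I BMP receptor Bmpr1a rose from 5.43 ± 1.55 to 32.6 ± 5.19 CPM, a log2 fold change of 2.59 (SE 0.25, QLF test, FDR = 0.00129), and the type II receptor Bmpr2 from 48.7 ± 3.55 to 100.6 ± 8.29 CPM (1.05, SE 0.10, FDR = 0.00129). Tgfbr1 had a log2 fold change of 0.90 (SE 0.11, QLF test, FDR = 0.00286) and Smad5, which carries BMP signals, of 0.77 (SE 0.14, FDR = 0.0134). The transcription factors Egr2 and Egr3, which T cell receptor signals induce and which act on Id3 in thymocytes, fell. Egr2 went from 69.0 ± 9.12 to 32.4 ± 5.97 CPM (log2 fold change -1.09, SE 0.16, QLF test, FDR = 0.00562) and Egr3 from 69.2 ± 2.64 to 43.5 ± 7.52 CPM (-0.67, SE 0.13, FDR = 0.0151). The calls of Smad5 and Egr3 were lost without each of the WT libraries in turn (FDR between 0.0510 and 0.0671), and the other 4 of these 6 genes were called in all 6 fits that left out a library. KO replicate 1 was not the extreme KO library of Bmpr1a, Bmpr2 or Smad5 on the high side, and the log2 fold changes without it were 2.67, 1.06 and 0.90. It was the highest library of Tgfbr1, with 272 CPM against 254 and 215 CPM in the other KO libraries, and the log2 fold change without it was 0.81.

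Among 25 genes of effector Treg cells, in which Id2 is used, all 25 were tested, 10 were called higher and 0 lower, beside 11.6% higher and 7.27% lower over all tested genes. The median log2 fold change was 0.35, and 0.19 without KO replicate 1. Itgae, the CD103 integrin chain, rose from 133, 126.5 and 102 CPM in WT to 597, 479 and 558 CPM in KO (log2 fold change 2.18, SE 0.14, QLF test, FDR = 0.000508). Klrg1, a receptor of terminally differentiated cells, rose from 48.4 ± 9.78 to 271 ± 65.0 CPM (2.49, SE 0.22, FDR = 0.00110). The costimulatory receptor Tnfrsf9 had a log2 fold change of 0.99 (SE 0.12, QLF test, FDR = 0.00264) and the secreted mediator Fgl2 of 2.57 (SE 0.39, FDR = 0.00625), which without KO replicate 1 were 0.88 and 2.03. These 4 genes were called in all 6 fits that left out a library. The other 15 genes were not called, and at an unadjusted QLF p under 0.05 the counts were 11 higher and 0 lower. The likelihood ratio and exact tests and limma-voom also called 10 higher and 0 lower, and DESeq2 11 and 0. Without KO replicate 1 the QLF test called 10 higher and 1 lower, the adhesion receptor Cd44 (FDR = 0.00310), named after its value was seen. The summed CD8 and NK cell markers were also higher in KO (271, 116 and 112 CPM against 45.6 or less in WT). So were the summed monocyte and macrophage markers, and the part of such cells in the effector calls was not tested. The part of the inflammation in the KO mice was not tested either.

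The central Treg list, of naive-like cells in which Id3 is used, had 2 genes called higher and 2 lower among 15 tested, beside 11.6% and 7.27% over all tested genes. Its median log2 fold change was -0.04. Myb rose from 65.5 ± 3.37 to 273 ± 52.7 CPM (log2 fold change 2.06, SE 0.15, QLF test, FDR = 0.000640) and the chromatin organizer Satb1 from 412 ± 59.3 to 689.8 ± 156 CPM (0.74, SE 0.18, FDR = 0.0303). The actin cross-linker Actn1 fell from 321.5 ± 19.0 to 111 ± 18.9 CPM (-1.54, SE 0.13, QLF test, FDR = 0.000996) and the receptor Slamf6 from 282 ± 16.4 to 183 ± 38.3 CPM (-0.62, SE 0.15, FDR = 0.0297). The calls of Satb1 and Slamf6 were lost without each of the WT libraries, and that of Slamf6 also without KO replicate 3, at an FDR between 0.0701 and 0.109. Without KO replicate 1 the list had 4 genes called higher and 2 lower, and the median turned to 0.13.

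The follicular list had 14 of its 15 genes tested, with 6 called lower and 1 called higher, beside 7.27% lower and 11.6% higher over all tested genes. The median log2 fold change was -0.48. Beside Cxcr5, the lower genes with the smallest p-values were Bcl6, Tox2 and Sh2d1a. Bcl6, the transcription factor of the follicular fate, fell from 67.4 ± 9.40 to 27.97 ± 6.00 CPM (log2 fold change -1.27, SE 0.18, QLF test, FDR = 0.00497). Tox2 (log2 fold change -0.47, SE 0.10, FDR = 0.0180) and Sh2d1a, the adaptor SAP (-0.47, SE 0.10, FDR = 0.0200), changed less in the QLF test. The calls of both were lost without each of the WT libraries, and that of Sh2d1a also without KO replicate 3, at an FDR between 0.0542 and 0.0918. Il4 was the gene called higher, at 1.90 ± 0.0970 CPM in WT and 4.96 ± 0.918 CPM in KO (log2 fold change 1.39, SE 0.23, QLF test, FDR = 0.00833). Without KO replicate 1 the list had 9 genes called lower and 1 higher and a median of -0.47, in a fit that called 868 of 11429 genes lower and 1107 higher, and the part of the B cell transcripts of that library in this difference was not tested.

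**Figure D5:**
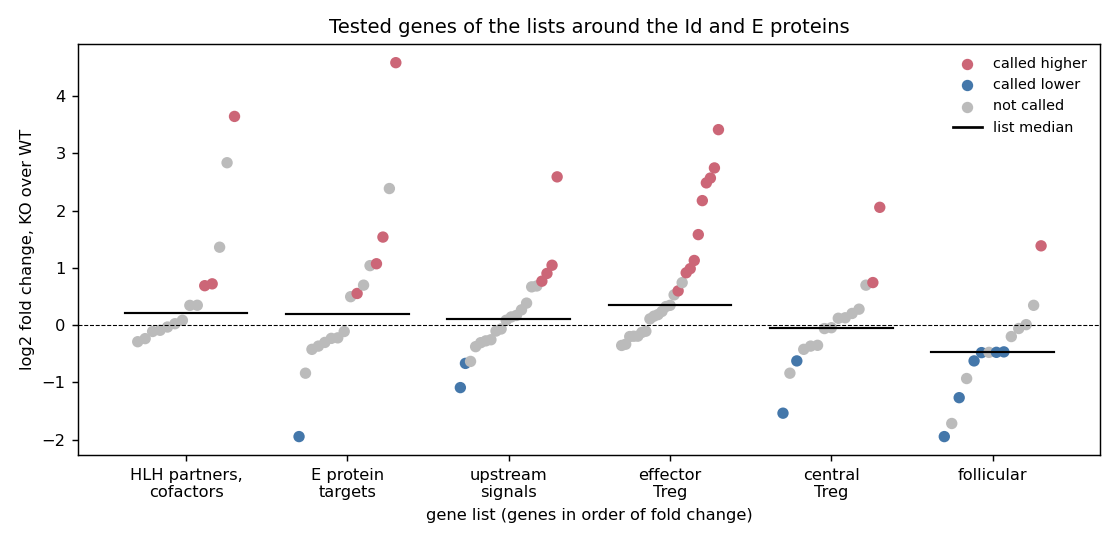
Log2 fold change (KO over WT, y axis) of the tested genes of the 6 lists, in order of fold change within each list, with genes called higher in red, called lower in blue and not called in grey, and a black line at the list median. The follicular list has the lowest median, -0.48, and the effector Treg list the highest, 0.35, with all 6 libraries. Some genes, among them Cxcr5, are in more than 1 list.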

How the data were processed

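RNA-seq of sorted splenic Treg cells was analysed from 6 libraries, 3 per genotype. Per the study's methods, the authors aligned 51-base single-end reads to mm10 with HISAT and counted them per gene without strand with featureCounts. The deposited matrix holds counts. The filter kept a gene if 3 or more libraries exceeded 1 CPM before TMM scaling. The QLF test of edgeR 4.0.16 (R 4.3.3) was applied after TMM scaling, and p-values were adjusted by Benjamini-Hochberg over all tested genes. The threshold was an FDR under 0.05. Permutation tests used log2(CPM + 0.5). Common biological variation was 0.212. Only the QLF fit was tried on simulated counts, which varied less than these data and held no library like KO replicate 1. Positions, lengths and 3′ UTRs came from GENCODE vM21 (GRCm38, the build mm10 names), matched by symbol.

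The members and lists were chosen with earlier results of these data known. Named genes were the members, up to 4 called genes per list and direction with the smallest p, the 3 genes most correlated with each member, and the leading and absent markers. Alternatives covered RLE and library-size scaling, the likelihood ratio and exact tests, DESeq2 1.42.0, limma-voom (limma 3.58.1), filters, thresholds, a replicate block, gene lengths, site types, the genes of list medians and leaving out each library. The matches opposite an A, the median transcript length, the threshold of 0.01 in other tools, the genes of list medians and the fits of list genes without each library were chosen after seeing the data.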

Additional observations from a re-analysis of the deposited data

How the results depend on the processing

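Under the 11 alternatives that kept all 6 libraries, Id2 (log2 fold change 1.33 to 1.40, FDR 7.63e-07 to 0.0267) and Tcf4 (1.40 to 1.49, FDR 0.000234 to 0.0431) were called higher in all 11. Id3 was lower in all 11 and called in 9. It lost its call without a filter (-0.62, FDR = 0.0580) and with the replicate block (-0.61, FDR = 0.0771), which each left 0 members called lower. Id1, Tcf3 and Tcf12 kept a positive fold change and no call in all 11. At an FDR under 0.01 the QLF test called 0 members higher and 0 lower, so Id2 (1.40), Tcf4 (1.49) and Id3 (-0.60) lost their calls, although 3 members had an unadjusted p under 0.05. At that threshold the likelihood ratio and exact tests called 2 members, DESeq2 3 and limma-voom 0.

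Without each library in turn, the log2 fold change ranged from 1.05 to 1.57 for Id2, from 1.09 to 1.78 for Tcf4, from -0.80 to -0.50 for Id3 and from 0.11 to 0.21 for Tcf3. Tcf12 ranged from -0.03 to 0.26 and was reversed, at -0.0250, without KO replicate 2. Id1 ranged from 0.08 to 0.45 in the 3 fits that tested it. The members called ranged from 0 to 2 higher and from 0 to 1 lower. Over all genes these fits called 691 to 2340, with the fewest without WT replicate 2, against 2197 with all libraries, and an FDR under 0.01 gave 686. Fewer libraries are part of how these fits were built. With scaling by library size alone, 1064 genes were higher and 1201 lower, against 1350 and 847 with TMM, and of the E protein targets 3 were higher in place of 4 and 3 lower in place of 1. The replicate block gave 1061 and 545.

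Deviations from the group mean had correlations of 0.0804, -0.0056 and -0.195 between same-numbered WT and KO libraries. Between differently numbered libraries they were -0.183 to 0.207. With 3 libraries per group these values cannot decide whether replicate numbers pair the samples. Id1, with 13 to 29 counts, is limited by depth.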

Other observations

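Several listed genes did not pass the CPM filter. They were chosen after their values were seen, because the groups did not overlap, so their counts are a description. Tal1, an HLH partner of E proteins in blood progenitors, had 1, 4 and 0 counts in WT and 32, 13 and 37 counts in KO replicates 1, 2 and 3, with the most in KO replicate 3. Msc, an HLH repressor that pairs with E proteins, had 2, 1 and 0 counts in WT and 15, 8 and 9 in KO. Gfi1b, a zinc finger repressor from the list of E protein targets, had 0 counts in the WT libraries and 27, 8 and 10 in KO. The erythroid list, in which no globin gene had a count, was also higher in all KO libraries than in WT, and its part in these values was not tested.

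Bhlhe41 had 2, 7 and 12 counts in WT and 84, 14 and 13 in KO, so that KO replicates 2 and 3 were close to WT replicate 3. Ascl2, a factor of follicular helper T cells, had 14, 19 and 11 counts in WT and 5, 3 and 7 in KO. Bhlhe40, a relative of Bhlhe41 that passed the filter, had 1439, 4034 and 8979 counts in WT and 5989, 5046 and 3498 in KO, a wide spread within WT.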
